A study of Mus musculus with 143 samples.

Results

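The comparison described here set wild-type mice given NTC, a non-targeting small interfering RNA (siRNA), against untreated wild-type mice in the treatment strategy named 6[4]10. Its 16 libraries, of 143 in the series, were chosen by their labelled group: 8 NTC libraries and 8 untreated libraries, each from 4 females and 4 males with 1 library per animal. NTC animals were treated at 6 months of age, and the striatum of both groups was collected at 10 months. Neither group carried the zQ175 knock-in allele of Htt, the Huntington's disease gene. Dose, route and sequence of NTC were not given in the sources used here, nor whether untreated animals went through any procedure, so the siRNA and its delivery cannot be told apart. Beside this comparison stand other groups of the same strategy: wild-type mice given HTT-10150, an siRNA against Htt, and zQ175 mice given NTC or left untreated. Wild-type NTC and untreated groups of 2[4]6 (treated at 2 months, collected at 6) and of 2+6[8]10 (treated at 2 and 6 months, collected at 10) were used to compare strategies.

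An siRNA is a short double-stranded RNA that Argonaute proteins load and use to cut matching transcripts. A non-targeting siRNA is meant to match no transcript of the animal and so serves as the control for delivering an siRNA at all. Such RNA can be sensed by Toll-like receptors in endosomes and by RIG-I and MDA5 in the cytosol, and this sensing leads to interferon and to the genes interferon induces. Most neurons of the striatum are medium spiny neurons with D1 or D2 dopamine receptors, and astrocytes, oligodendrocytes, microglia and vessels lie among them.

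The 16 libraries held 14.5 to 27.8 M counts (M for mega, median 18.1 M), and 0 of their 120 pairs were identical. Nothing says that the animals of a group differed in litter, cage or dissection day, so p-values measure only the spread between these animals. Striatal markers were abundant throughout: the summed level of 30 medium spiny neuron genes was 19150 to 22653 CPM in NTC and 18046 to 22509 CPM in untreated animals. Levels are depth-scaled counts (CPM, with TMM scaling), and a summed level adds the CPM of a list's members. A few libraries stood apart, which was seen after their levels were computed. Untreated female 1 had the highest astrocyte level of its group (8409 CPM, the others 6892 to 7335 CPM) and 101.6 CPM of thalamic and septal neuron genes (the others 54.6 to 63.03 CPM). NTC female 4 had 719 CPM of cortical neuron genes (the others 185 to 389 CPM). NTC male 1 had 946 CPM of choroid plexus and ependymal genes (the others 87.3 to 243.8 CPM). For a named gene whose printed log2 fold change was over 0.1 in size and moved by more than 1.5 times without 1 or all of these 3 libraries, a value without them is given.

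Across the transcriptome, the comparison asked whether NTC treatment left a difference in the wild-type striatum 4 months later. No gene passed the test. Of 15757 genes, 0 were called higher and 0 lower at an adjusted p under 0.05 (edgeR quasi-likelihood F test with sex as a term, Benjamini-Hochberg over all genes), a background of 0%. At an unadjusted p under 0.05 there were 394 genes, 2.5% of those tested, with 1.17% higher and 1.33% lower in NTC. DESeq2 also called 0 genes, with 211 higher and 248 lower at an unadjusted p under 0.05. The smallest adjusted p was 0.27 (edgeR), for Gm43302, described below.

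The differences were also small. Among the 13288 genes with a mean log2 CPM over 1, the median size of the log2 fold change of NTC over untreated was 0.03 and the median half-width of its 95% interval was 0.12. For 98.0% of these genes the whole interval lay within a 1.5-fold difference in either direction, and for 99.3% within a 2-fold difference. All 8 NTC animals lay above all 8 untreated animals for 2 genes (0.0127% of those tested) and below them for 0 genes (0%).

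**Figure D1:**
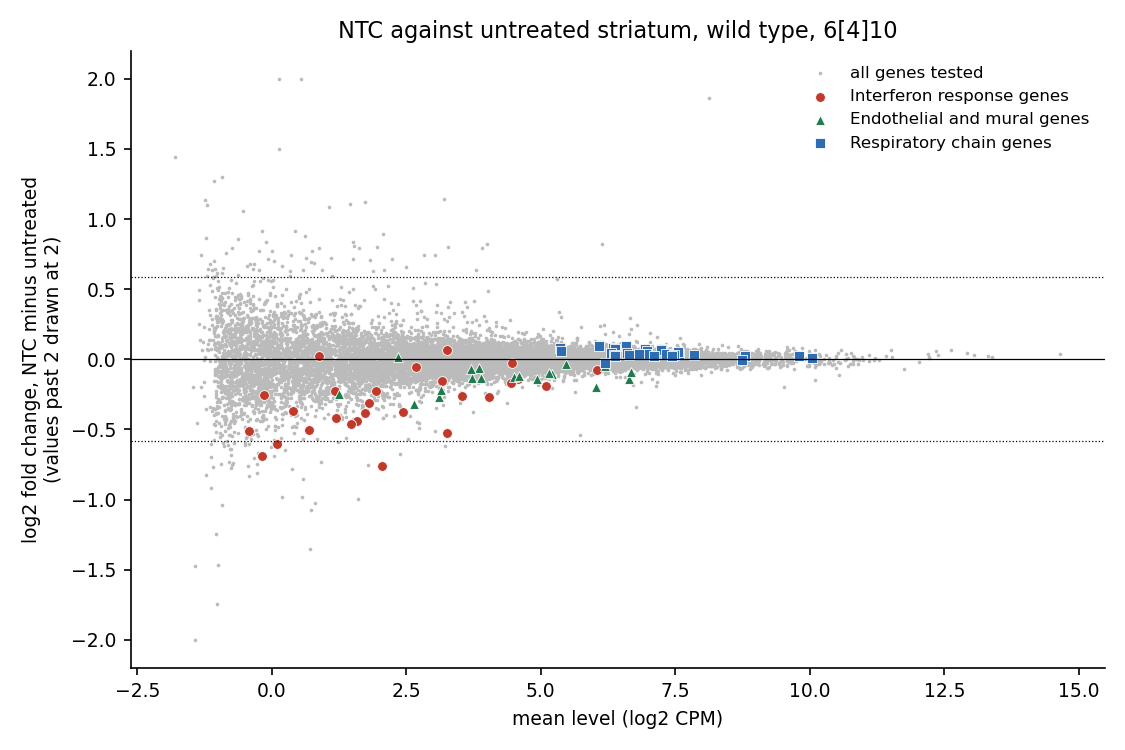
Log2 fold change of NTC over untreated (vertical axis) against mean level in log2 CPM (horizontal axis) for the genes tested, with dotted lines at a 1.5-fold difference and values past 2 drawn at 2. Points narrow around 0 as the level rises, and 26 of the 28 interferon response genes (red circles) lie below 0.

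Htt is the transcript that HTT-10150 targets. It had 144.4, 158.5 and 171.7 CPM in NTC animals and 152, 158.3 and 164.3 CPM in untreated animals (lowest, median and highest), so that the NTC range enclosed the untreated one. Htt (chr5:34761740-34912534, GRCm38) averaged 157 ± 8.14 CPM in NTC and 158.4 ± 3.97 CPM in untreated animals (SD, n = 8 each), a log2 fold change of -0.01 (95% interval -0.18 to 0.16). An exact two-sided permutation test over the 16 animals gave p = 0.66, where 0.000155 is the smallest p possible. HTT-10150 animals, set against the same untreated animals, had 78.1 to 149.2 CPM.

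Genes that interferon induces mostly had negative log2 fold changes in NTC animals, and none passed the test. Of the 28 tested members of the interferon response list (30 in all), 26 had a negative log2 fold change and 15 of these an unadjusted p under 0.05, where 1.33% of all genes had both, while 0 were called. That 15 became 9 without untreated female 2. It was 4 with a number in the library names as a block, a fit of only the 13 libraries whose number occurred in both groups. The median over the list was -0.29 and over all genes 0.00. This list was written with earlier results of these data known, so its counts only describe. The list summed to 224, 235 and 266 CPM in NTC animals and 223, 263 and 344 CPM in untreated animals (lowest, median and highest). The groups overlapped, with the 4 untreated females (279 to 344 CPM) above every NTC animal. The 4 NTC females had 227.6 to 266 CPM, and males had 224 to 238.2 CPM with NTC and 223 to 246.5 CPM untreated.

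Promoters of 3 interferon-inducible genes are shown because motifs of interferon-activated factors stand near their starts. Irgm2 is not on the interferon response list but on the list of interferon-inducible GTPases described below. Each is a RefSeq window of 300 bases on GRCm38.p6, 250 before and 50 after the start, in the direction of the gene, with motif matches in capitals. Ifit3 is chr19:34583279-34583578 (plus strand), Isg15 is chr4:156200769-156201068 (minus strand) and Irgm2 is chr11:58214727-58215026 (plus strand). One motif is a pair of GAAA half-sites 2 bases apart, the core of the interferon-stimulated response element, and the other is TTCNNNGAA, the gamma-activated site, both searched on both strands.
Ifit3: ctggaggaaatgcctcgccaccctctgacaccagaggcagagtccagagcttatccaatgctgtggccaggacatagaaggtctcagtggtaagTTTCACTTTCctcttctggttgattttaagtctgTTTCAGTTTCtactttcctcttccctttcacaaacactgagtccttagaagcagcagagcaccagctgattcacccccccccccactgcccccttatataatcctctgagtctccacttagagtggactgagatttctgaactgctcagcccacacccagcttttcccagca
Isg15: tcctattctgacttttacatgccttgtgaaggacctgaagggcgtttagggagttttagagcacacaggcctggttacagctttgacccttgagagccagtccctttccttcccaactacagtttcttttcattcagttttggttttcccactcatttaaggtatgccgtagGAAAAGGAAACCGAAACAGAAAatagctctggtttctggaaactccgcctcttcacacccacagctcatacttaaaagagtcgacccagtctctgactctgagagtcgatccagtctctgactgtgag
Irgm2: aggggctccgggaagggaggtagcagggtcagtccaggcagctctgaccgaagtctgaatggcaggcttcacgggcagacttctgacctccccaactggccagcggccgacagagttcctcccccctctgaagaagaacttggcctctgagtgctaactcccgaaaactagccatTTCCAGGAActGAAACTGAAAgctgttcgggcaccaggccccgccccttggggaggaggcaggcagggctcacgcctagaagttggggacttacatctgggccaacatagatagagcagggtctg
Ifit3 holds 2 matches of the paired half-sites, Isg15 3 that overlap one another, and Irgm2 1, with 1 gamma-activated site. Of the 28 tested interferon response genes 22 had a window, and 11 of these held the paired half-sites, against 3.59% of the 11824 tested genes with a window. The gamma-activated site was in 5 of the 22, against 8.07% of tested genes. A match describes the letters of the window and is not a measured binding site.

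Ifit3, an interferon-induced antiviral protein with tetratricopeptide repeats, had 5.54, 7.08 and 8.97 CPM in NTC animals and 7.11, 9.68 and 14.95 CPM in untreated animals (lowest, median and highest). The groups overlapped, but the untreated females (9.41 to 14.95 CPM) lay above every NTC animal. Its log2 fold change was -0.53 ± 0.13 (SE; edgeR adjusted p = 0.48). The near copy Ifit3b, which may share its reads, had -0.38.

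Oasl2, a relative of the oligoadenylate synthetases of the antiviral response, had 1.92, 2.77 and 3.89 CPM with NTC and 2.45, 5.02 and 9.04 CPM untreated. NTC animals lay in and below the lower part of the untreated range. Its log2 fold change was -0.76 ± 0.21 (edgeR adjusted p = 1.0), the most negative of the list. Trim30a, an interferon-inducible tripartite motif protein, had 1.85, 2.55 and 3.25 CPM with NTC and 2.48, 3.46 and 4.58 CPM untreated, overlapping in the middle, and a log2 fold change of -0.44 ± 0.12 (adjusted p = 0.87). Isg15, a ubiquitin-like modifier, averaged 1.37 ± 0.413 CPM with NTC and 2.02 ± 0.715 CPM untreated (SD, n = 8 each), a log2 fold change of -0.51 ± 0.21. It was named after its values were seen, as were Iigp1, Ddx60, Cxcl10, Irf9, H2-K1, Ifih1, Pecam1, Sdhb, Uqcrc2 and Slc17a7, and also Ifit3b, Stat2, Mx2 and B2m.

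Factors that carry the interferon signal were measured as well. Irf9, a DNA-binding partner of STAT2, averaged 10.0 ± 1.43 CPM with NTC and 12.1 ± 2.71 CPM untreated (-0.26 ± 0.10 on the log2 scale, and -0.12 without the 3 libraries). Irf7, which amplifies the response, averaged 1.61 ± 0.397 CPM with NTC and 2.18 ± 0.862 CPM untreated (-0.42 ± 0.20). Stat2 had a log2 fold change of -0.02, with an unadjusted p over 0.05. Among genes that present antigen, H2-K1 had -0.19 ± 0.08, and H2-Q4 averaged 5.23 ± 0.374 CPM with NTC and 7.19 ± 1.35 CPM untreated (-0.45 ± 0.12, adjusted p = 0.87). Near-identical MHC class I genes can exchange reads, which leaves their separate levels uncertain. Cxcl10, a chemokine that draws T cells, was close to the detection limit, at 0 to 0.338 CPM with NTC and 0.111 to 1.58 CPM untreated.

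Interferon-inducible GTPases act on the membranes of vacuoles that hold pathogens. Their list was written after values had been seen, so its counts, like those of the interferon response list, only describe. Of 13 tested members, none of them in the first list, 11 had a negative log2 fold change. Lower at an unadjusted p under 0.05 were 6 of the 13, against 1.33% of all genes. That 6 became 3 without untreated female 2 and 3 without the 3 libraries. Gbp7 had 5.51 to 7.10 CPM with NTC and 6.42 to 9.34 CPM untreated (-0.27 ± 0.08), and Irgm2 had 2.89 to 4.59 CPM with NTC and 3.46 to 6.87 CPM untreated (-0.39 ± 0.12). Gm43302 and Ddx60, given next, are on neither list. Gm43302 had 2.10, 2.48 and 2.69 CPM in NTC and 2.20, 4.00 and 6.09 CPM in untreated animals (-0.75 ± 0.16, edgeR adjusted p = 0.27). Its span (chr5:105214907-105293695, GRCm38) overlaps the guanylate-binding genes Gbp6 and Gbp10, so its reads cannot be told from theirs. Ddx60, a helicase of the antiviral response, averaged 0.924 ± 0.323 CPM with NTC and 1.62 ± 0.555 CPM untreated (-0.78 ± 0.21, adjusted p = 0.87).

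**Figure D2:**
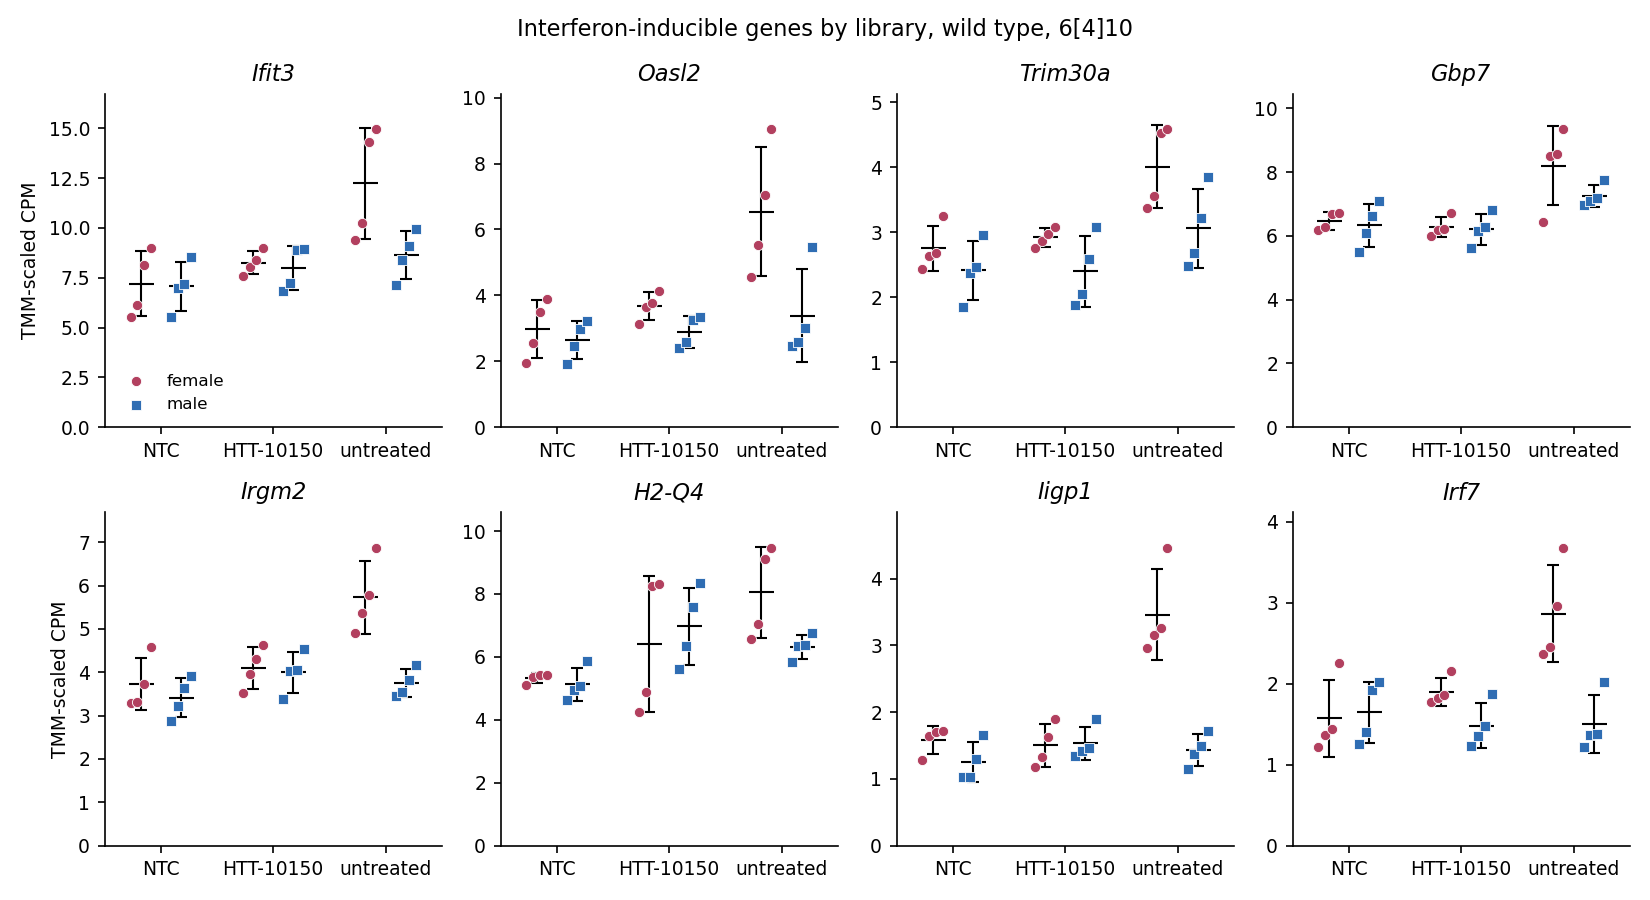
TMM-scaled CPM of 8 interferon-inducible genes in each library of the wild-type NTC, HTT-10150 and untreated groups of 6[4]10, females as circles and males as squares, with bars for the mean ± SD of each sex (n = 4). Untreated females have the highest mean in all 8 panels, and for Iigp1 their 2.97 to 4.46 CPM lie above all other libraries shown.

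By sex, the values farther below 0 were those of females. In females the median log2 fold change over the 28 interferon response genes was -0.54, with 27 negative and 20 at an unadjusted p under 0.05, where 577 genes (3.66%, with 1.82% higher and 1.84% lower) had such a p. In males the median was -0.04, with 18 negative and 0 at an unadjusted p under 0.05, where 191 genes (1.21%, with 0.666% higher and 0.546% lower) had one. NTC females lay below all untreated females for 13 of the 28 (1.43% of all genes), among them Ifit3, Oasl2, Trim30a, Irf7, Mx2 and B2m. NTC males lay below all untreated males for 1 of the 28 (0.781% of all genes). In females 2 genes were called lower, 0.0127% of those tested, and 0 higher, while in males 0 were called (0%).

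Iigp1, an interferon-inducible GTPase, was 1 of the 2. It had 1.28, 1.67 and 1.72 CPM in NTC females and 2.97, 3.21 and 4.46 CPM in untreated females. All 4 untreated females lay above all 4 NTC females. Iigp1 fell in females by 1.13 on the log2 scale (SE 0.18, edgeR adjusted p = 0.0013). In males it had 1.02 to 1.66 CPM with NTC and 1.15 to 1.71 CPM untreated. Gm43302, the other gene, fell in females by 1.08 (SE 0.21, adjusted p = 0.044), with 2.30 to 2.69 CPM in NTC and 3.83 to 6.09 CPM in untreated females. DESeq2 called the same 2 genes in females. Both calls came from the fit of females and males together, and a fit of female libraries alone called 0 genes, with an edgeR adjusted p of 0.059 for Iigp1 and 0.38 for Gm43302. Without the 3 libraries that stood apart, 1 gene was called in females, and the interferon response median in females was -0.52 with 16 members at an unadjusted p under 0.05.

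The difference between the sexes was itself tested, and no gene was called (0%), with 325 genes (2.06%, with 0.85% higher and 1.21% lower) at an unadjusted p under 0.05. For Iigp1 the log2 effect in females minus that in males was -0.97 ± 0.26 (edgeR unadjusted p = 0.00055, adjusted p = 1.0). A difference of the effect between females and males was thus not called for any gene.

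**Figure D3:**
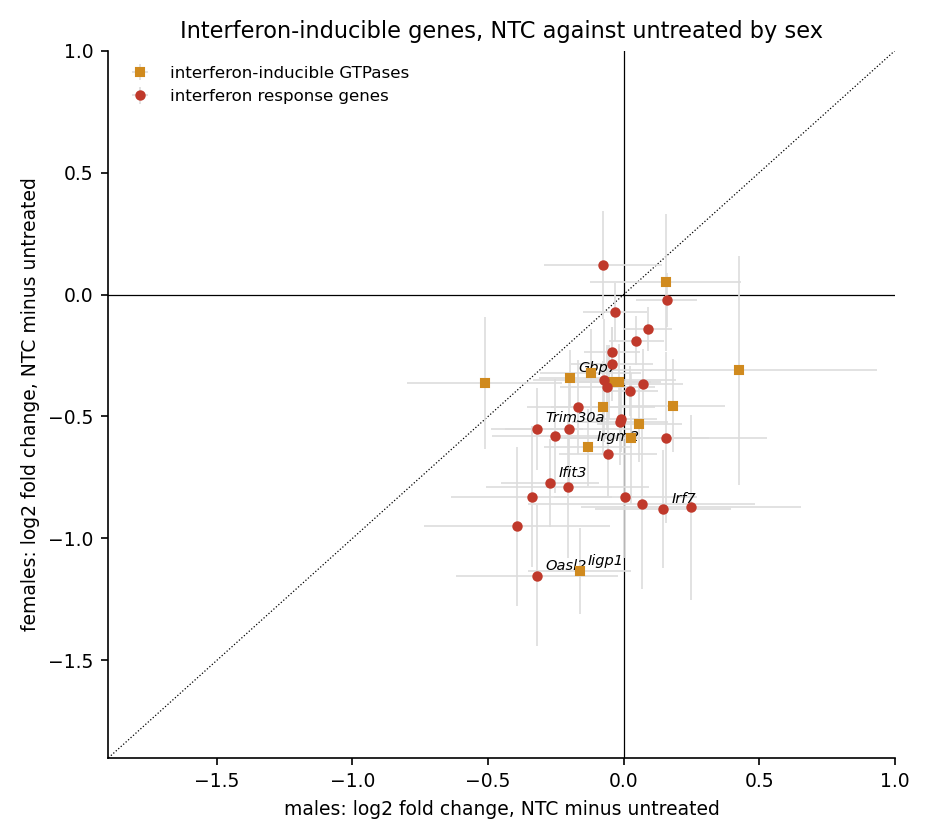
Log2 fold change of NTC over untreated in females (vertical axis) against that in males (horizontal axis), with SE bars, for 28 interferon response genes (circles) and 13 interferon-inducible GTPases (squares). Most points lie below 0 for females, while males scatter on both sides of 0 around a median of -0.04 for the interferon response genes.

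Untreated females were also set against untreated males, and Iigp1 passed the test while no gene of the interferon response list did. The untreated females are those of the comparison with NTC, and Iigp1 was named after its values were seen. This contrast is thus no separate evidence of a difference from NTC. Among untreated wild-type animals the median log2 difference of females over males was 0.48 over the interferon response genes, and Iigp1 was higher in females (1.28, edgeR adjusted p = 1.0e-05). It was 1 of 12 genes called in that comparison (0.0762%, with 0.0381% higher and 0.0381% lower in females), of which the other 11 are genes of the X and Y chromosomes, where 1165 genes (7.39%, with 3.83% higher and 3.57% lower) had an unadjusted p under 0.05. HTT-10150 animals, set against the same untreated animals, had an interferon response median of -0.12, with 0 genes called (0%) and 409 genes (2.6%, with 1.28% higher and 1.32% lower) at an unadjusted p under 0.05. Their summed interferon response level was 246.9 to 278 CPM in females and 233.8 to 254 CPM in males, and Iigp1 had 1.17 to 1.89 CPM in HTT-10150 females.

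Over the 36 combinations of group and sex in the series, untreated wild-type females of 6[4]10 had the highest median of the summed interferon response level, 308 CPM with all libraries scaled together. Close behind came zQ175 NTC females of 6[4]10, with a median of 303 CPM and a higher mean (315 against 309 CPM). NTC females of 6[4]10 ranked 21 of 36 (242.4 CPM), NTC males 27 (230.7 CPM) and untreated males 29 (229.8 CPM). In 2[4]6, wild-type NTC females had a median of 222 CPM and untreated females of 301 CPM. In 2+6[8]10, wild-type NTC females had a median of 234.5 CPM and untreated females of 254 CPM. In zQ175 mice of 6[4]10 the order was the other way, with 297 to 355 CPM in NTC females and 241.95 to 312 CPM in untreated females, overlapping. Wild-type males of the other strategies had the higher median with NTC. It was 235.1 CPM against 223.5 CPM untreated in 2[4]6, and 225.3 CPM against 222.7 CPM in 2+6[8]10.

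Sensors that could detect an siRNA were also measured. Of 16 RNA sensing genes tested, 13 had a negative log2 fold change, with a median of -0.08 and 0 called. Of the 16, 1 was lower at an unadjusted p under 0.05, against 1.33% of all genes. That gene was Ifih1, which encodes MDA5 and is itself induced by interferon, at 3.84 ± 0.469 CPM with NTC and 4.65 ± 0.960 CPM untreated (-0.27 ± 0.11). Tlr7, an endosomal receptor of single-stranded RNA, averaged 2.70 ± 0.598 CPM with NTC and 2.45 ± 0.721 CPM untreated (0.14 ± 0.18, and 0.23 without untreated female 1). The 20 genes of the RNA interference machinery had a median of -0.01 and 0 at an unadjusted p under 0.05. Ago2, the Argonaute that cuts target RNA, had 102.2 to 126 CPM with NTC and 101 to 134.9 CPM untreated (-0.04 ± 0.07). Of 18 activated microglia genes and 13 cytokine and NF-kB genes, 0 had an unadjusted p under 0.05. Among glial genes, the microglial marker Aif1 had -0.15 ± 0.11, the astrocyte filament gene Gfap 0.01 ± 0.18, and the complement gene C4b -0.13 ± 0.10 (-0.07 without untreated female 1).

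Vessel genes had small negative log2 fold changes, with 0 called. Of 19 endothelial and mural genes, 18 had a negative log2 fold change, as did 7834 of all 15757 genes, and the median was -0.13. Lower at an unadjusted p under 0.05 were 7 of the 19, against 1.33% of all genes. In these bulk samples, fewer cells of a type and less RNA per cell cannot be told apart. Flt1, an endothelial receptor of vascular growth factors, had 55.1, 64.2 and 74.3 CPM with NTC and 62.9, 71.2 and 85.9 CPM untreated, ranges that overlapped widely, and a log2 fold change of -0.20 ± 0.06 (edgeR adjusted p = 1.0). Rgs5, a pericyte gene, had -0.14 ± 0.05, Myh11, the smooth muscle myosin, -0.32 ± 0.13 (-0.21 without the 3 libraries), and Pecam1, an endothelial adhesion molecule, -0.13 ± 0.05. Medians were -0.14 in females (-0.09 without the 3 libraries) and -0.10 in males. The count of 7 became 4 without untreated female 1 or without NTC male 1, and 0 without all 3 libraries that stood apart, where the median was -0.09.

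Meningeal and fibroblast genes mark the coverings of the brain. All 13 had a negative log2 fold change, and the median was -0.26. Of the 13, 3 were lower at an unadjusted p under 0.05, against 1.33% of all genes. Slc6a13, a GABA and taurine transporter found in the leptomeninges, had 1.54, 2.09 and 2.33 CPM with NTC and 2.14, 3.18 and 3.81 CPM untreated, so that the groups overlapped only at the low end of the untreated range. Its log2 fold change was -0.59 ± 0.14 (edgeR adjusted p = 0.41), with -0.58 in females and -0.60 in males. Col3a1, a fibrillar collagen, had -0.60 ± 0.23 (-0.30 without the 3 libraries), and Aldh1a2, which makes retinoic acid, -0.48 ± 0.21. The list summed to 89.4 to 109 CPM in NTC and 95.3 to 141 CPM in untreated animals. Without the 3 libraries the median was -0.17 and 1 member had an unadjusted p under 0.05.

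Genes of cortical projection neurons, which a striatal dissection can carry along, had a median of 0.74, the farthest from 0 of the lists, with 12 of 12 positive and 0 at an unadjusted p under 0.05. The value rested on few animals: the list summed to 185, 290.4 and 719 CPM in NTC and 194, 237.7 and 369 CPM in untreated animals. Without NTC female 4 the median was 0.10, and without all 3 libraries 0.25. Slc17a7, the vesicular glutamate transporter of cortical neurons, had 8.24 to 302 CPM in NTC and 11.7 to 109 CPM in untreated animals. Nrn1, which encodes neuritin, had a log2 fold change of 0.80 ± 0.46, Cux2, an upper-layer factor, 0.16 ± 0.11, and Fezf2, a deep-layer factor, 0.31 ± 0.25. Without NTC female 4 the log2 fold change of Nrn1 was 0.10 and that of Fezf2 0.19. Choroid plexus and ependymal genes summed to 946 CPM in NTC male 1, and to 374 and 365 CPM in untreated females 1 and 3. Ttr, made by the choroid plexus, had 34.2, 68.4 and 861 CPM in NTC and 21.5, 30.7 and 297 CPM in untreated animals (1.86 ± 1.04), with -0.87 in females alone and 0.08 without NTC male 1. Otx2, a choroid plexus factor, had 0.59 ± 0.58 (0.30 without NTC male 1), and Ccdc153, an ependymal gene, -0.22 ± 0.27 (-0.13 without the 3 libraries). The nearly identical hemoglobin genes Hba-a1 and Hba-a2 had 0.24 ± 0.14 and 0.19 ± 0.13, and 0.09 and 0.06 without NTC male 1. The part of such neighbouring tissue in the differences above was not tested.

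**Figure D4:**
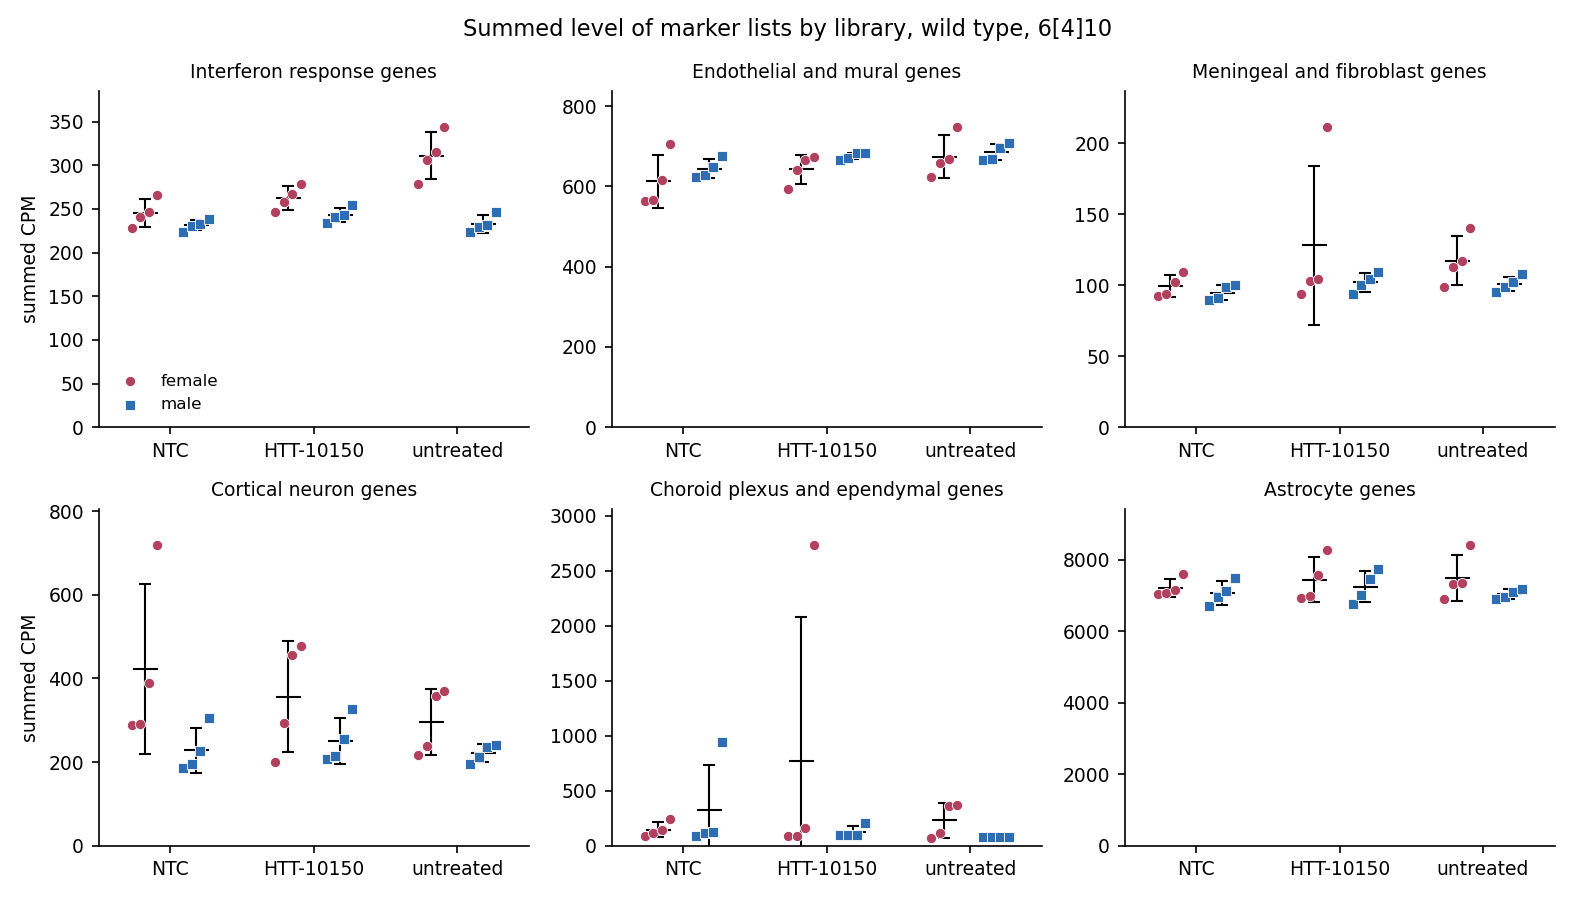
Summed CPM of 6 marker lists in each library of the wild-type NTC, HTT-10150 and untreated groups, females as circles and males as squares, with the mean ± SD of each sex (n = 4, bars cut at 0). Interferon response levels of untreated females (279 to 344 CPM) stand above all NTC libraries. Cortical levels are highest in NTC female 4 (719 CPM). Choroid plexus and ependymal levels are highest in HTT-10150 female 2 (2734 CPM), then in NTC male 1 (946 CPM), with 374 and 365 CPM in untreated females 1 and 3.

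Medium spiny neurons gave nearly the same values in both groups. Their 30 genes had a median log2 fold change of -0.02 (range -0.12 to 0.03), 26 of them negative, with 0 at an unadjusted p under 0.05. Drd1, the D1 dopamine receptor, averaged 265 ± 14.3 CPM with NTC and 272 ± 21.6 CPM untreated (-0.04 ± 0.09), and Drd2, the D2 receptor, 173 ± 9.99 CPM with NTC and 177 ± 9.94 CPM untreated (-0.03 ± 0.08). The neuropeptide precursor genes Penk, Pdyn and Tac1 had -0.01 ± 0.08, 0.00 ± 0.12 and 0.03 ± 0.07. Adora2a, the adenosine receptor of the indirect pathway, had -0.03 ± 0.12, and Ppp1r1b, which encodes DARPP-32, had 2249.9 to 2812 CPM with NTC and 2136 to 2923 CPM untreated (-0.01 ± 0.09).

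**Figure D5:**
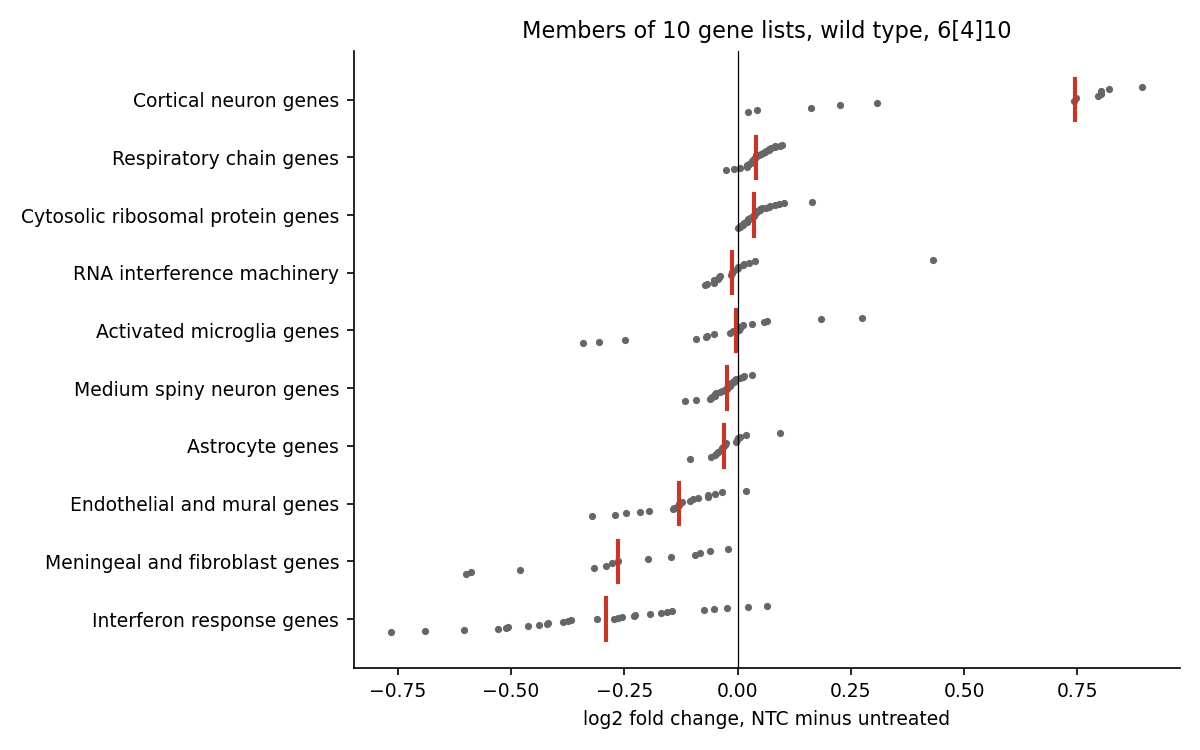
Log2 fold change of NTC over untreated (horizontal axis) for the tested members of 10 gene lists, 1 grey point per gene in order of value, with a red bar at each list's median. Interferon response genes have a median of -0.29 and cortical neuron genes of 0.74, while medium spiny neuron genes lie within -0.12 to 0.03.

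Several mitochondrial genes were among those with the smallest p and a positive log2 fold change, none past the adjusted threshold. Pmpcb, a subunit of the peptidase that trims imported mitochondrial proteins, had 34.1, 37.4 and 40.2 CPM with NTC and 32.6, 33.6 and 35.3 CPM untreated. The groups overlapped at the low end of the NTC range. Its log2 fold change was 0.15 ± 0.04 (edgeR adjusted p = 0.41). Mrpl23, a mitochondrial ribosomal protein, had 0.41 ± 0.13, Ndufb4, of complex I, 0.19 ± 0.06 (0.12 without the 3 libraries), and Pdha1, of pyruvate dehydrogenase, 0.08 ± 0.03. On the respiratory chain list 27 of 29 genes were positive, but the median was 0.04. Higher at an unadjusted p under 0.05 were 2, against 1.17% of all genes: Sdhb (0.09 ± 0.04) and Uqcrc2 (0.07 ± 0.03). All 30 cytosolic ribosomal protein genes tested were positive, with a median of 0.04 and 0 at an unadjusted p under 0.05. With each library's slopes on transcript length and GC content as covariates, these list medians were 0.01 and 0.00.

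Arhgap22, which turns off Rac, and Gjd2, a neuronal gap junction connexin, were the 2 genes whose groups did not overlap. Arhgap22 had 4.58 to 5.84 CPM with NTC and 3.72 to 4.37 CPM untreated (0.33 ± 0.10). Gjd2 had 5.33 to 6.57 CPM with NTC and 4.40 to 5.31 CPM untreated (0.25 ± 0.08), and both had an edgeR adjusted p of 1.0. Grm8, a presynaptic glutamate receptor, had 0.33 ± 0.11, and Tm2d1, 0610009B22Rik, Thyn1, Snora43 and Tmem144 lay between 0.13 and 0.25. On the negative side, Lima1, an actin-binding protein, averaged 12.9 ± 1.10 CPM with NTC and 15.2 ± 1.72 CPM untreated (-0.24 ± 0.06, adjusted p = 0.87). Cd93, a receptor of endothelial and myeloid cells, had -0.30 ± 0.09, Pcbd1, an enzyme of biopterin recycling, -0.41 ± 0.12, and Edn3, an endothelin, -0.36 ± 0.11.

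In zQ175 mice of the same strategy, NTC against untreated also gave 0 called genes (0%), with 1167 genes (7.41%, with 3.52% higher and 3.88% lower) at an unadjusted p under 0.05. The interferon response median there was 0.11, with Ifit3 at 0.02, Oasl2 at 0.14 and Iigp1 at 0.02. For the difference between genotypes, wild type minus zQ175, 0 genes were called (0%) and 1104 genes (7.01%, with 4.21% higher and 2.79% lower) had an unadjusted p under 0.05. Against 2+6[8]10 the difference of the wild-type effect had 0 genes called (0%) and 965 genes (5.92%, with 2.12% higher and 3.8% lower) at an unadjusted p under 0.05. Against 2[4]6 it had 0 called (0%) and 340 genes (2.09%, with 1.16% higher and 0.927% lower). DESeq2 called 1 gene against 2+6[8]10, Prl, which encodes the pituitary hormone prolactin and was named after its values were seen. The DESeq2 log2 value of Prl was far larger in size than any other log2 value given here, and edgeR called no gene there. Whether a few libraries or very low counts gave that value was not tested, so no effect of NTC on Prl is concluded. By themselves, in the fit of all 143 libraries, 2+6[8]10 had 53 called genes (0.325%, with 0.184% higher and 0.141% lower) and 1644 genes (10.1%, with 6.08% higher and 4.01% lower) at an unadjusted p under 0.05. In that fit 6[4]10 had 0 called and 475 genes (2.92%, with 1.49% higher and 1.43% lower), and 2[4]6 had 0 called and 316 genes (1.94%, with 0.835% higher and 1.1% lower). These counts do not test a difference between strategies. Interferon response medians were -0.02 in 2+6[8]10 and -0.12 in 2[4]6.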

How the data were processed

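RNA from mouse striatum was sequenced after polyA selection, per the labels' protocols. Per the submitters' processing notes, RSEM and the GRCm38 build were used, with the RSEM version, aligner and annotation not given in the sources used here. The deposited values are expected counts per gene, not scaled to depth by the authors. Of 41135 entries, 7 name no gene (5.91e-06% of counts) and were left out. Expected counts were rounded to whole numbers, which 78.4% of nonzero values already were (tolerance 1e-06). A second deposited table was not used. Symbols were found for 40254 identifiers, with positions from GENCODE on GRCm38.

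Genes were tested with edgeR 4.0.16 (R 4.3.3, quasi-likelihood F test) over the 48 libraries of 6[4]10, with group and sex as terms, filterByExpr, TMM scaling and Benjamini-Hochberg adjustment over 15757 genes. The SE is the size of the log2 fold change over the square root of F. Effects by sex came from a fit of group by sex, and strategy differences from a fit of 143 libraries. Scripts were checked on simulated counts. The named genes were the 12 of smallest p in each direction (mean log2 CPM over 1, both sexes in that direction), up to 3 of each of the 6 lists with medians farthest from that of all genes, and 15 set genes. Members, lists and rules were chosen with earlier results of these data known. Alternatives were DESeq2 1.42.0, RLE scaling, no filter, other sets of libraries, no sex term, replicate or library name number as a block, length and GC slopes, each sex, and each library left out. The library name block was fitted on the 13 libraries whose number occurred in both groups, so it also changed the set of libraries. Leaving out 3 libraries together, and DESeq2 within each sex, were chosen after seeing the data.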

Additional observations from a re-analysis of the deposited data

Results flagged for a closer look

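Among the 194 sets of 8 values examined (each gene or list described, in NTC or in untreated animals), 24 had 1 library farther from the others than the 95% critical share of the range. Chance gives about 1 in 20 such sets, and lists that share genes or tissue are not independent.

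Untreated female 1 gave 11 of the 24. It was lowest in Drd1 (221 CPM, the others 270.2 to 289.8 CPM), Tac1 (153.1 CPM, the others 185 to 204 CPM), medium spiny neuron genes (18046 CPM, the others 20733 to 22509 CPM) and direct pathway neuron genes (931 CPM, the others 1032 to 1084 CPM). It was highest in Gfap (212 CPM, the others 111 to 148.1 CPM), astrocyte genes (8409 CPM, the others 6892 to 7335 CPM), reactive astrocyte genes (434 CPM, the others 283 to 337 CPM) and oligodendrocyte precursor genes (706 CPM, the others 551 to 617 CPM). It was also highest in thalamic and septal neuron genes (101.6 CPM, the others 54.6 to 63.03 CPM), heat shock and chaperone genes (7921 CPM, the others 5775 to 6419 CPM) and integrated stress response genes (820.3 CPM, the others 748 to 769.7 CPM).

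NTC male 1 was highest in Ttr (861 CPM, the others 34.2 to 171 CPM), choroid plexus and ependymal genes (946 CPM, the others 87.3 to 243.8 CPM), blood and liver type genes (1351 CPM, the others 292 to 514 CPM) and cytosolic ribosomal protein genes (7026 CPM, the others 6113 to 6510.0 CPM). NTC female 4 was highest in cortical neuron genes (719 CPM, the others 185 to 389 CPM), Nrn1 (31.3 CPM, the others 1.77 to 10.3 CPM), Slc17a7 (302 CPM, the others 8.24 to 120.8 CPM) and Uqcrc2 (171 CPM, the others 148.7 to 157 CPM). NTC male 3 was highest in Mrpl23 (14.6 CPM, the others 8.98 to 11.5 CPM) and in RNA interference machinery (1356 CPM, the others 1253 to 1296 CPM). NTC male 2 was highest in immediate early genes (2053.99 CPM, the others 1042.6 to 1477 CPM), and NTC female 1 in heat shock and chaperone genes (7595 CPM, the others 5785 to 6609 CPM). HTT-10150 female 1, outside the sets examined, had 7676 CPM of these genes, between NTC female 1 and untreated female 1 (7921 CPM). Whether the same-numbered females share a cause of this was not tested. Untreated male 2 was lowest in nuclear long noncoding RNAs (7146 CPM, the others 7938 to 8365 CPM).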

How the results depend on the processing

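Under each alternative other than leaving out 1 library, 0 genes were called in either direction over both sexes. Leaving out 1 library gave 0 higher and 0 to 2 lower: Gm43302 and Iigp1 without untreated male 1, and Gm43302 without untreated male 4. The 2 genes called in females became 1 without the 3 libraries and 0 in a fit of female libraries alone, and DESeq2 called 1 in the difference from 2+6[8]10. Same-numbered animals of both groups did not all deviate together (8 pairs, 3 with r over 0.1, r -0.08 to 0.19), so the numbers were not taken as pairs. With the replicate block 0 genes were called, and the interferon response median was -0.28 over 6 groups and -0.29 over the 16 libraries.

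Of 63 named genes, 13 had the other sign under at least 1 alternative, and 61 were called under none. Htt was 0.00428 with the library name block on 13 libraries, 0.0284 with slopes, 0.0104 in males, 0.0155 without the 3 libraries, and -0.0359 to 0.00333 leaving out 1. Males alone gave Fezf2 -0.0247, Pdyn -0.0379, Irf7 0.145 and H2-K1 0.0242. Females alone gave Ttr -0.87, Adora2a 0.00491, Ppp1r1b 0.0111, Gfap -0.0343 and Aif1 0.147. Pdyn was -1.77e-05 and -0.00221 with the replicate block over 6 groups and 16 libraries, -0.0333 with the library name block and -0.00658 with slopes. Tac1 was -0.0126 with slopes and -0.0368 without the 3 libraries, where Ago2 was 0.0277. Leaving out 1 library gave -0.0437 to 0.0152 for Penk, -0.0368 to 0.0364 for Pdyn, -0.00313 to 0.0548 for Tac1, -0.0865 to 0.0031 for Adora2a, -0.0403 to 0.016 for Ppp1r1b and -0.0478 to 0.111 for Gfap. The cause was not tested.

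Leaving out 1 library gave interferon response medians of -0.35 to -0.25 with 9 to 18 members at an unadjusted p under 0.05 (9 without untreated female 2). That count was 10 without the 3 libraries and 4 with the library name block on 13 libraries (median -0.23). The GTPase count was 3 without untreated female 2 and without the 3 libraries. The endothelial count was 3 with slopes. The meningeal count was 1 without NTC male 1, 5 without untreated male 3, untreated female 2, NTC female 2 or NTC female 3, and 6 without NTC male 3 or untreated female 3. Genes at an unadjusted p under 0.05 ran from 91 higher and 79 lower in males to 369 higher and 424 lower without a filter. For genes of few counts, such as Cxcl10, differences were not detectable at this depth unless large.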

Other observations

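Other cell types and pathways of the wild-type striatum had no called gene. The counts that follow are of members at an unadjusted p under 0.05, which 2.5% of all genes had (1.33% lower). Astrocyte genes had a median log2 fold change of NTC over untreated of -0.03 with 0 of 16, myelin genes 0.00 with 0 of 16, lysosome genes 0.01 with 0 of 20 and circadian clock genes 0.03 with 0 of 17. Reactive astrocyte genes had -0.10 with 3 of 16, 14 of the 16 negative, and the 3 are also induced by interferon: Cxcl10 (-1.74), H2-D1 (-0.23) and Gbp2 (-0.28), named after their values were seen. Blood and liver type genes had 0.19 with 0 of 6, all positive, with Ttr and the hemoglobin genes among them. Among homeostatic microglia genes 2 of 16 had such a p, Olfml3 (-0.17) and Itgam (-0.15), named after their values were seen. Immediate early genes, which follow neuronal activity, had a median of -0.29 in females and 0.15 in males, with 0 of 20 at such a p over both sexes, and the difference of the sexes was not called for any of them. Of 17 lymphocyte and neutrophil genes 1 passed the filter on low counts.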
